A study of Mus musculus with 24 samples.

Results

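Livers of mice that lack JNK1 in every cell (JNK1-/-) were set against livers of mice that lack it in hepatocytes alone (JNK1Δhepa), all taken 48 h after the common bile duct was ligated. The comparison rests on 6 of the 24 arrays of the study, 3 per genotype, chosen by their titles, and on all 18820 genes that could be named. Every mouse was male, on a C57/BL6 background, operated on at 7 to 8 weeks and labelled as 8 weeks old at 48 h. JNK1Δhepa mice came from crossing JNK1f/f mice, whose Mapk8 alleles are floxed, with a line whose Cre is driven by an albumin promoter that turns on after birth. Their stellate cells, Kupffer cells, endothelium and leukocytes are thus not targeted. Whether their bile duct cells kept JNK1 was not tested. JNK1-/- mice were bought as a separate line, and nothing in the labels says that mice of different genotypes were littermates. The reference groups used beside them are JNK1f/f controls ligated for 48 h (3 arrays), JNK1f/f controls 48 h after sham surgery (3 arrays), and JNK1-/- and JNK1Δhepa livers ligated for 28 d and labelled as 12 weeks old (3 arrays each). The study operated on 9 to 10 mice per group, and how the 3 arrayed livers were picked, and whether any were pooled, is not stated, so the p-values below measure the spread between arrays. The question is what loss of JNK1 outside hepatocytes adds, early after bile flow stops, to its loss within them. The genotypes also differ as lines and in when hepatocytes lost JNK1, since the Cre turns on after birth. These arrays cannot tell such differences apart from loss outside hepatocytes.

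JNK1 is the stress-activated kinase encoded by Mapk8. It is switched on by the kinases MKK4 and MKK7 and phosphorylates c-Jun and other members of the AP-1 transcription factor family, while the related kinase JNK2, encoded by Mapk9, covers part of its work. In liver, JNK1 is known for roles in insulin signalling and lipid storage, in hepatocyte death and regrowth, and in the activation of the stellate cells that lay down scar matrix. Duct ligation holds bile acids back in the liver, kills patches of hepatocytes, draws in neutrophils and makes bile duct cells and stellate cells multiply. Since whole liver was measured, fewer cells of a type and less RNA per cell cannot be told apart.

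Mapk8 itself had log2 intensities of 5.33, 6.17 and 6.09 in the 3 JNK1-/- livers (replicates 1 to 3, in that order here and below) and of 6.77, 6.81 and 6.76 in the 3 JNK1Δhepa livers, against a mean of 7.44 in ligated controls. The JNK1-/- readings were the lowest, the JNK1Δhepa readings lay between them and the controls, and the groups did not overlap. The difference, JNK1-/- minus JNK1Δhepa, was -0.91 on the log2 scale (SE 0.22, adjusted p = 0.0297), where a difference of 1 is a 2-fold change. A gene is called here when its adjusted p, from limma with Benjamini-Hochberg adjustment over all 18820 genes, is under 0.05. Mapk8 kept its call in 2 of the 6 fits that left out 1 of the 6 arrays, losing it without JNK1-/- replicate 1 or without any 1 of the JNK1Δhepa arrays, and where its probes lie relative to the deleted part was not stated by the submitters. The other JNK genes did not pass the test: Mapk9 differed by -0.09 (adjusted p = 0.632) and Mapk10, which encodes JNK3, by -0.03 (adjusted p = 0.932).

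**Figure D1:**
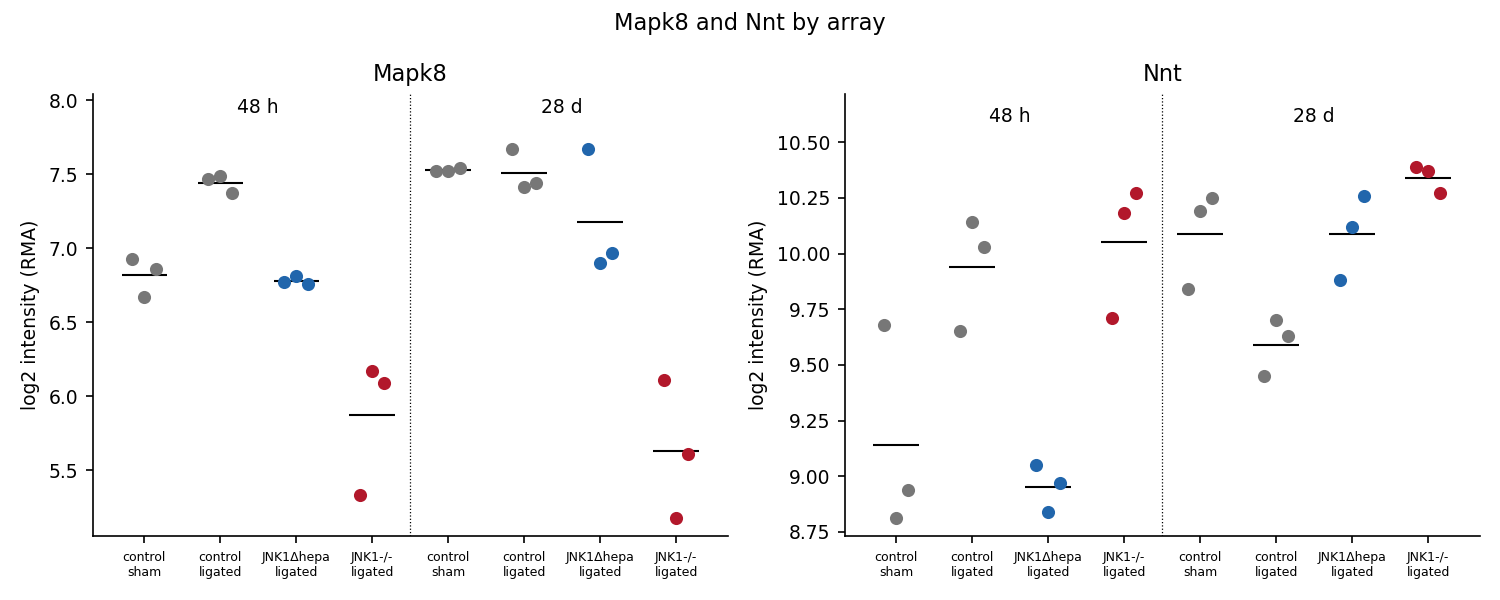
Log2 intensity of Mapk8 (left) and Nnt (right) in all 24 arrays, with groups along the x axis, 1 point per array and a bar at each group mean; grey marks controls, blue JNK1Δhepa and red JNK1-/-. At 48 h the JNK1-/- arrays are lowest for Mapk8, while the JNK1Δhepa arrays are below the JNK1-/- and ligated control arrays for Nnt.

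Some arrays stood apart. The 3 sham control arrays at 48 h read 6.67 to 6.93 for Mapk8, at the level of JNK1Δhepa and against their label, and JNK1Δhepa replicate 1 at 28 d read 7.67, at the control level. None of these 4 arrays is among the 6 compared, but they enter the shared estimate of spread, and without them 314 genes were called in place of 460. Among the 6, JNK1-/- replicate 1 had 425 genes more than 1 log2 unit away from its group's median, against 15 and 42 for the other JNK1-/- arrays and 11 to 93 for the JNK1Δhepa arrays. Of 26 genes of hepatocyte identity and secretion 1 was called and the median difference was 0.06. Alb, the albumin gene, read 13.37, 13.37 and 13.38 in JNK1-/- and 13.41, 13.33 and 13.35 in JNK1Δhepa. Nnt, the mitochondrial transhydrogenase that C57BL/6J mice carry in a truncated form and C57BL/6N mice do not, read 9.71, 10.18 and 10.27 in JNK1-/- and 9.05, 8.84 and 8.97 in JNK1Δhepa, a difference of 1.10 (adjusted p = 0.00394), with means of 9.94 in ligated and 9.14 in sham controls. At 28 d the Nnt means were 10.34 in JNK1-/- and 10.09 in JNK1Δhepa, so the low JNK1Δhepa level at 48 h was not seen in that genotype at 28 d. The substrain of each line was not stated, and its part in the results below was not tested.

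In all, 460 of 18820 genes were called at 48 h (2.44%), 226 of them higher in JNK1-/- (1.2%) and 234 lower (1.24%). The groups of 3 did not overlap for any of the 460, but neither did they for 22.2% of all genes. At an unadjusted p under 0.05 there were 2967 genes (15.8%). By size, 144 called genes differed at least 2-fold, 62 higher and 82 lower. Leaving out 1 array at a time gave 228 calls without JNK1-/- replicate 1, 287 without replicate 2 and 382 without replicate 3. It gave 245, 209 and 145 calls without JNK1Δhepa replicate 1, 2 or 3, and 102 genes were called in all 6 of these fits.

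**Figure D2:**
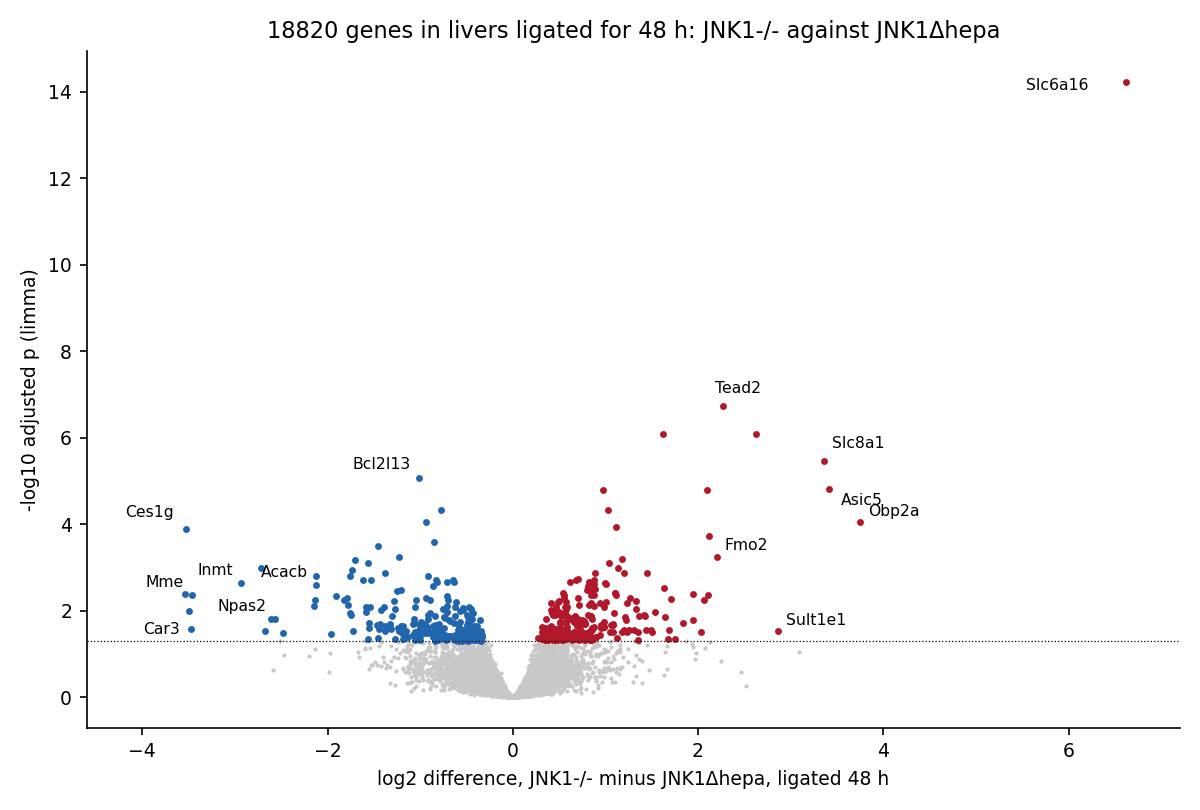
Each of the 18820 genes by its log2 difference, JNK1-/- minus JNK1Δhepa, in livers ligated for 48 h (x axis) and by -log10 of its adjusted p from limma (y axis); red points are the 226 genes called higher in JNK1-/-, blue points the 234 called lower, grey points the rest, and the dotted line is an adjusted p of 0.05. Slc6a16 lies far to the right of all others at 6.62, and Ces1g, Car3 and Mme lie at the left edge near -3.5.

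The gene that differed most was Slc6a16, an orphan member of the neurotransmitter transporter family. It read 10.74, 10.21 and 10.27 in JNK1-/- livers and 3.79, 3.67 and 3.90 in JNK1Δhepa livers, a difference of 6.62 (SE 0.19, adjusted p = 5.87e-15), and ligated controls read 3.71. Its group levels were thus separated by more than 6 log2 units, with JNK1Δhepa and control livers below the array medians of 5.184 to 5.324, where the lower level may be background and the difference is then a lower bound. Next came genes of ion and small molecule handling. Asic5, a sodium channel that bile acids can open, read 9.99, 7.72 and 8.55 against 5.27, 5.11 and 5.64, a difference of 3.41 (adjusted p = 1.53e-05). Slc8a1, the sodium-calcium exchanger NCX1, read 7.07, 7.44 and 7.43 against 3.92, 3.81 and 4.15, a difference of 3.36 (adjusted p = 3.4e-06). Obp2a, a lipocalin that binds small odorants, read 9.04, 8.69 and 7.55 against 4.12, 5.21 and 4.69, a difference of 3.75 (adjusted p = 9.08e-05). For each of these 4 genes every JNK1-/- array was above every JNK1Δhepa array, as for all genes called higher. The call held in all 6 fits with 1 array left out.

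Among enzymes, Fmo2, a flavin monooxygenase, was higher in JNK1-/- by 2.20 (SE 0.30, adjusted p = 0.000565), with readings of 9.89, 9.26 and 9.01 against 7.15, 7.51 and 6.90. Sult1e1, the sulfotransferase that inactivates oestrogens, was higher by 2.86 (SE 0.68, adjusted p = 0.0296), with a wide spread in both groups: 7.72, 8.56 and 6.99 against 4.59, 6.41 and 3.69. Its call was lost without JNK1-/- replicate 1 or 2 or JNK1Δhepa replicate 1 or 3. Nox4, an NADPH oxidase that makes hydrogen peroxide, was higher by 1.95 (adjusted p = 0.00411), from 6.57, 6.81 and 7.34 in JNK1Δhepa to 9.65, 8.55 and 8.35 in JNK1-/-. Atp10d, a phospholipid flippase, and Capn8, a calpain protease, were higher by 2.12 and 2.11 (adjusted p = 0.000185 and 0.00441). Among regulators, Tead2, a partner of the Hippo pathway's coactivator YAP, and Lnx1, a ubiquitin ligase, were higher by 2.27 and 2.10 (adjusted p = 1.86e-07 and 1.61e-05). The rest of the 15 largest, predicted genes left out, were Prelid2 at 2.63, Rgs16, which shortens G protein signals, at 2.03, and the myeloid genes Chil3 at 2.06 and Retnlg at 1.95. Of these, Rgs16 was the least secure, called in 1 of the 6 fits with 1 array left out.

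The genes that were lower in JNK1-/- were led by liver transporters and enzymes. Ces1g, a carboxylesterase that acts on lipids, read 6.20, 8.72 and 8.85 in JNK1-/- against 11.39, 11.41 and 11.56 in JNK1Δhepa, a difference of -3.53 (SE 0.43, adjusted p = 0.000133), and ligated controls read 11.46. Car3, a carbonic anhydrase abundant in male mouse liver, read 7.07, 7.46 and 9.08 against 11.06, 10.69 and 12.36, a difference of -3.50 (adjusted p = 0.0105) that lost its call without JNK1-/- replicate 1 or JNK1Δhepa replicate 3. Slc22a26, of the organic anion transporter family, read 3.91, 4.67 and 5.67 against 9.66, 7.55 and 7.65, a difference of -3.54 (adjusted p = 0.00411). The lowest reading was that of JNK1-/- replicate 1 in all 3, and none of these 3 genes overlapped between the groups, as for all called genes.

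Mme, which encodes the peptidase neprilysin, read 3.98, 4.84 and 5.03 in JNK1-/- and 8.18, 7.71 and 8.33 in JNK1Δhepa, a difference of -3.46 (SE 0.61, adjusted p = 0.00441). Inmt, an indole N-methyltransferase, read 7.96, 8.31 and 9.38 against 11.32, 11.09 and 12.04, a difference of -2.93 (adjusted p = 0.00233). Chrna4, a nicotinic acetylcholine receptor subunit, differed by -3.47 (adjusted p = 0.0269), and Aqp8, a water channel of the hepatocyte's bile-facing membrane, by -2.67 (adjusted p = 0.0299). These last differences were called in 3 and 2 of the 6 fits with 1 array left out, while Mme and Inmt were called in all 6. The rest of the 15 were the fatty acid binding protein gene Fabp5 (-2.61), Aldh3b2 (-2.15), Sytl5 (-2.14), Prom1 (-1.96), the clock gene Npas2 and the lipid genes Thrsp, Acacb and Angptl8 described below. Prom1 lost its call in all 6 such fits.

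Of 38 gene lists, 21 had a called member and 7 had more than 1. The list of lipid synthesis had the most. The 14 lists with 1 call had 3.85% to 6.67% of their members called, against 2.44% of all genes. A single call is therefore given for the gene and not as a result about its list. Groups that do not overlap were common in lists with 0 or 1 call too. The share was 50% for cytochromes P450 of foreign compound metabolism and 42.3% for hepatocyte identity and secretion (1 call each). It was 47.6% for endoplasmic reticulum stress genes and 46.7% for antigen presentation genes (0 calls each). Shares of that size given below are thus not particular to a list. Hepatocytes turn sugar carbon into fatty acids under the transcription factors SREBP-1c and ChREBP, which insulin and glucose activate. Of 30 measured genes of fatty acid and triglyceride synthesis, 8 were lower in JNK1-/-, 1 was higher and 21 did not pass the test. That is 30% called, against 2.44% of all genes. The groups did not overlap for 60% of the list, against 22.2% of all genes. The median difference was -0.58 against 0.02 over all genes. At the top of the pathway, Srebf1, which encodes SREBP-1c, read 7.86, 8.08 and 8.04 in JNK1-/- and 9.00, 8.88 and 9.32 in JNK1Δhepa, a difference of -1.08 (SE 0.24, adjusted p = 0.0209). Mlxipl, which encodes ChREBP, read 9.42, 9.26 and 9.72 against 10.08, 9.80 and 10.21, a difference of -0.57 (SE 0.11, adjusted p = 0.0105). Both regulators were lower in every JNK1-/- liver than in any JNK1Δhepa liver, as were all genes called lower.

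Among the enzymes, Acacb, the mitochondrial acetyl-CoA carboxylase whose product blocks fatty acid import, read 7.04, 7.29 and 7.23 in JNK1-/- and 9.06, 9.18 and 9.67 in JNK1Δhepa, a difference of -2.12 (SE 0.35, adjusted p = 0.00261). It was 1 of only 23 genes called under all 15 alternatives tried. Scd1, the main liver desaturase, read 10.48, 12.11 and 12.64 against 13.08, 13.04 and 13.23, a difference of -1.38 (adjusted p = 0.0291), and Thrsp, a lipogenic cofactor, read 5.91, 7.73 and 7.86 against 9.14, 9.62 and 10.19, a difference of -2.48 (adjusted p = 0.0336). For Scd1 and Thrsp much of the difference lay in JNK1-/- replicate 1, and Thrsp, but not Scd1, lost its call without it. Elovl5, which lengthens fatty acids, Me1, which supplies NADPH, and Gpam, which starts triglyceride assembly, differed by -0.92, -1.08 and -0.99 (adjusted p = 0.0338, 0.0369 and 0.0185). Fasn, the fatty acid synthase, and Acly, which feeds it, had differences of -1.42 and -1.44 and did not pass (adjusted p = 0.0527 and 0.0647). Lpin2, a phosphatidate phosphatase, was the member called the other way, at 0.95 (adjusted p = 0.0256).

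The count of called members of this list was 5 without JNK1-/- replicate 1, 7 without replicate 2 and 8 without replicate 3. It was 3, 4 and 2 without JNK1Δhepa replicates 1, 2 and 3, and 6 without the 4 arrays whose Mapk8 reading goes against the label. The list's median was -0.36 without JNK1-/- replicate 1.

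**Figure D3:**
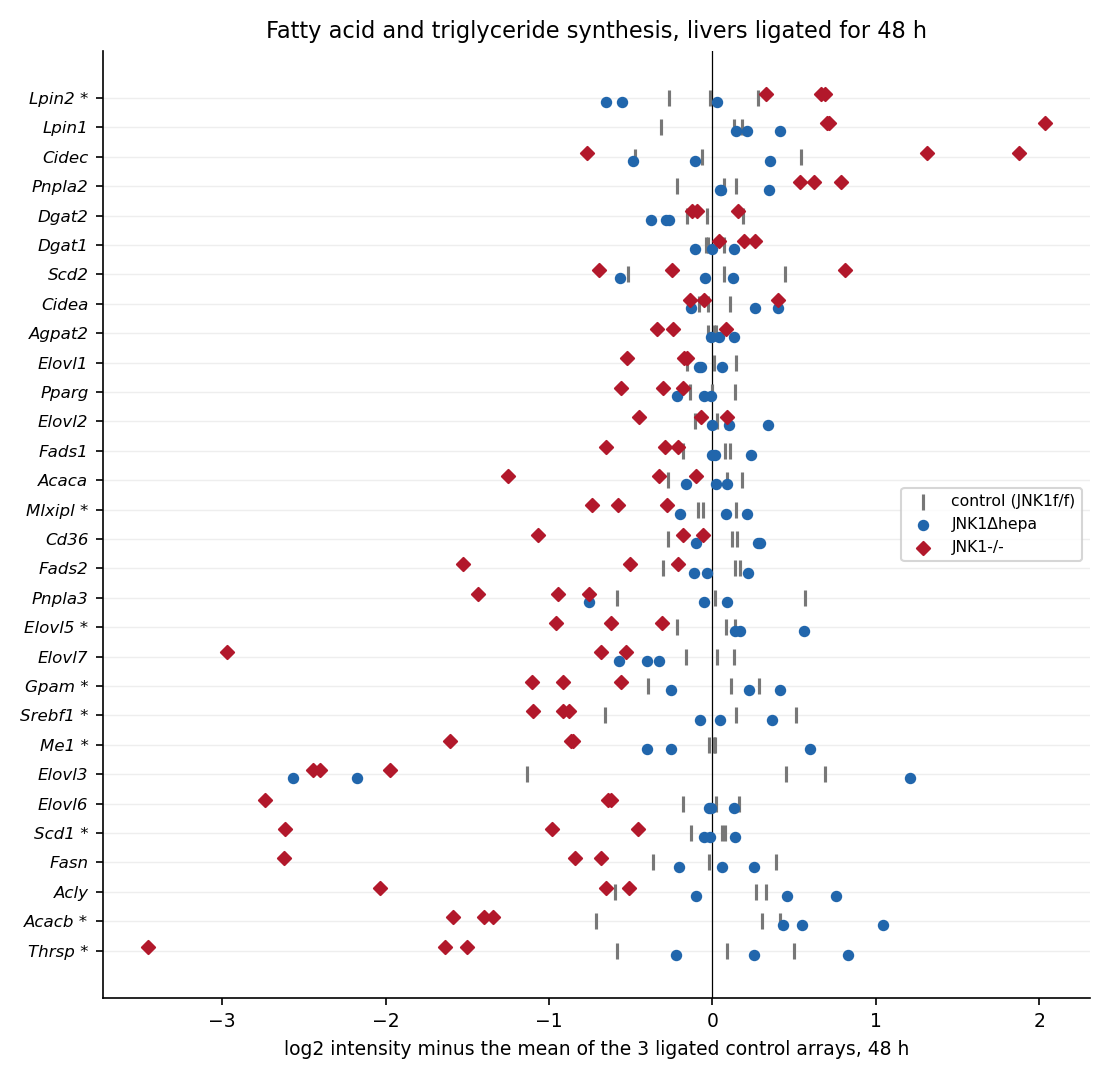
The 30 measured genes of fatty acid and triglyceride synthesis, 1 row each, sorted by the difference between the genotypes; the x axis is log2 intensity minus the mean of the 3 ligated control arrays at 48 h, red diamonds are JNK1-/- arrays, blue circles JNK1Δhepa, grey ticks controls, and * marks the 9 called genes. For each of the 8 genes called lower the 3 red diamonds lie left of all 3 blue circles, while Elovl3 and several other uncalled genes overlap.

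Some called genes outside the synthesis list bear on lipoprotein lipase. Angptl8, a hormone that insulin induces in liver and that restrains lipoprotein lipase, read 8.22, 8.11 and 8.46 in JNK1-/- and 10.67, 10.51 and 9.96 in JNK1Δhepa, a difference of -2.12 (SE 0.33, adjusted p = 0.00161). Angptl4, a related inhibitor that fasting and PPAR-alpha induce, went the other way, from 8.72, 7.77 and 8.44 in JNK1Δhepa to 10.02, 9.65 and 9.87 in JNK1-/-, a difference of 1.54 (adjusted p = 0.0108). Lpl, the lipase itself, was lower, with a difference of -1.56 (adjusted p = 0.000801), with readings of 8.22, 8.92 and 8.22 against 10.00, 10.03 and 10.00. Lpl was picked out after its values were seen.

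Of 22 measured genes of fatty acid oxidation and PPAR-alpha action, 5 were higher in JNK1-/- and none lower, with a median of 0.08. That is 22.7% called, against 2.44% of all genes. Beside Angptl4 the 5 were Cpt1a, which loads fatty acids for import into mitochondria, Acadm and Hadhb, enzymes of beta-oxidation, and Creb3l3, a fasting-induced transcription factor. Cpt1a read 11.71, 11.75 and 11.76 against 11.29, 11.25 and 11.02 (0.56, adjusted p = 0.0437), Acadm 11.68, 11.71 and 11.92 against 11.36, 11.30 and 11.38 (0.42, adjusted p = 0.0115), and Hadhb 9.80, 9.81 and 9.89 against 9.50, 9.31 and 9.46 (0.41, adjusted p = 0.00655). Creb3l3 differed by 0.47 (adjusted p = 0.0084). Of the list, 9 of 22 members had a negative difference, and the largest, none of them called, were in Acaa1b, a peroxisomal thiolase (-1.67, adjusted p = 0.0905), Pdk4, which spares glucose carbon (-0.98, adjusted p = 0.264), and Ehhadh, a peroxisomal beta-oxidation enzyme (-0.97, adjusted p = 0.055). Acaa1b and Ehhadh did not overlap between the groups. The calls numbered 3 without JNK1-/- replicate 3 and 2 without JNK1Δhepa replicate 2; Cpt1a lost its call in all 6 fits with 1 array left out. Other genes of this process that were picked after their values were seen, Slc25a20, the carnitine carrier, and Eci2, an enoyl-CoA isomerase, were higher by 0.52 and 0.89 (adjusted p = 0.0137 and 0.00323).

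Of 20 measured genes of glucose production and use, 2 were higher and 1 lower (15% called, against 2.44% of all genes). Pck1, the control point of gluconeogenesis, differed by 0.46 (adjusted p = 0.049) and lost its call in all 6 fits with 1 array left out. Gys2, the liver glycogen synthase, read 10.06, 9.87 and 10.30 in JNK1-/- against 8.99, 9.15 and 9.65 in JNK1Δhepa (0.81, adjusted p = 0.0129), and Pygl, the phosphorylase that breaks glycogen down, read 9.43, 9.41 and 9.41 against 10.14, 10.12 and 10.54 (-0.86, adjusted p = 0.00264). The synthase was thus higher and the phosphorylase lower in JNK1-/-. Of 19 cholesterol synthesis genes, 1 passed, Ebp at -0.54 (adjusted p = 0.00858), and the list's median of -0.54 became 0.08 without JNK1-/- replicate 1. The labels do not state whether mice had been fed or at which time of day livers were taken.

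The circadian clock is a loop in which BMAL1 (encoded by Arntl), paired with CLOCK or NPAS2, switches on the Per, Cry and Rev-erb genes through E-box elements, and their products switch it off; in liver it times much of metabolism. Of 18 measured clock genes, 3 were called (16.7%, against 2.44% of all genes), and for 12 the groups did not overlap (66.7%, against 22.2%), 7 of them higher in JNK1-/- and 5 lower. Npas2 read 6.43, 5.59 and 5.07 in JNK1-/- and 8.20, 7.80 and 8.80 in JNK1Δhepa, a difference of -2.57 (SE 0.54, adjusted p = 0.0159). Nr1d2, which encodes the repressor REV-ERB-beta, read 8.78, 9.30 and 9.29 against 7.79, 8.10 and 7.48, a difference of 1.33 (SE 0.26, adjusted p = 0.00909). Tef, an output transcription factor, read 7.63, 7.89 and 8.09 against 6.34, 6.54 and 6.45, a difference of 1.43 (SE 0.30, adjusted p = 0.0132). As for all called genes, the groups did not overlap: Npas2 was lower, and Nr1d2 and Tef were higher, in every JNK1-/- liver than in any JNK1Δhepa liver.

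Other clock genes had differences of similar size that did not pass. Ciart, a repressor of the loop, read 8.24, 8.05 and 8.03 against 5.74, 6.76 and 5.87 (1.98, adjusted p = 0.0974), Per3 6.77, 7.24 and 7.65 against 5.09, 5.26 and 5.46 (1.95, adjusted p = 0.0687), and Per1 8.97, 8.69 and 8.79 against 7.95, 7.72 and 7.53 (1.08, adjusted p = 0.11). Arntl had a difference of -1.04 (adjusted p = 0.338) and Cry2 of 0.99 (adjusted p = 0.0788). Repressors of the loop did not all lean one way, since Cry1 and Bhlhe40 had differences of -0.82 and -0.49 with no overlap (adjusted p = 0.355 and 0.261). Per1, Per3, Ciart, Cry1, Cry2, Bhlhe40 and Arntl were picked out after their values were seen. The number of clock genes called depended on which arrays entered the fit: 9 of 18 in a fit of the 48 h arrays alone, 7 in a fit of the 6 arrays, and 0 without JNK1Δhepa replicate 3. Leaving out that array changes the differences as well as the spread. The 48 h arrays include the 3 sham arrays whose Mapk8 reading goes against their label. In the fit of the 48 h arrays alone the 9 were Npas2, Nr1d2, Tef, Per1, Per3, Cry2, Ciart, Bhlhe41 and Arntl.

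**Figure D4:**
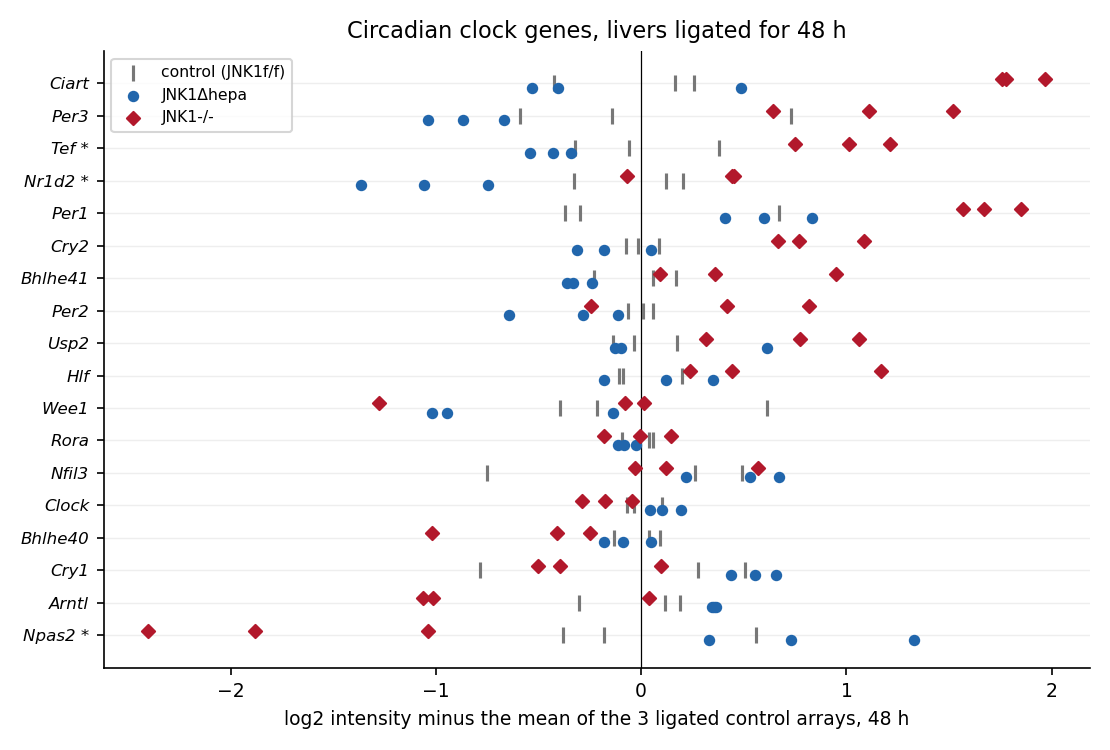
The 18 measured clock genes, 1 row each, sorted by the difference between the genotypes; the x axis is log2 intensity minus the mean of the 3 ligated control arrays at 48 h, red diamonds are JNK1-/- arrays, blue circles JNK1Δhepa, grey ticks controls, and * marks the 3 called genes. Ciart, Per3 and Tef sit to the right in JNK1-/- and Npas2 to the left, with no overlap between red and blue.

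E-box elements of the core form CACGTG were looked for in RefSeq promoter windows (GRCm38.p6, 250 bases before to 50 after each start site), a motif chosen after these results were seen. It was present in 5 of the 15 clock genes with a window (33.3%), in 9.57% of the 14739 tested genes with a window, in 12.8% of the called higher genes and in 10.2% of the called lower genes. The clock list holds genes known to be switched on through E-boxes, so its share is no result about the genotypes. The motif is its own reverse complement, so each match counts for both strands. The windows of Ciart, with 3 matches whose first bases are at -116, -58 and -44 from the start site, and of Tef, called and with 1 match in each of its 2 windows, are shown because they hold the element in a clock gene with a large difference; capitals mark CACGTG, and the rest is in lower case, 5′ to 3′ on the gene's strand.
Ciart (chr3:95882179-95882478, minus strand): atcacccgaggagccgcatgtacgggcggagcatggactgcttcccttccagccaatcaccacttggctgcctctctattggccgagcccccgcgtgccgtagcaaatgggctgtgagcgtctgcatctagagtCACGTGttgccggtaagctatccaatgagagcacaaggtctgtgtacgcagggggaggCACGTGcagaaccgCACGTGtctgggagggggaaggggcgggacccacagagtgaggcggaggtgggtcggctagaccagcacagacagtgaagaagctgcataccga
Tef, first window (chr15:81802423-81802722, plus strand): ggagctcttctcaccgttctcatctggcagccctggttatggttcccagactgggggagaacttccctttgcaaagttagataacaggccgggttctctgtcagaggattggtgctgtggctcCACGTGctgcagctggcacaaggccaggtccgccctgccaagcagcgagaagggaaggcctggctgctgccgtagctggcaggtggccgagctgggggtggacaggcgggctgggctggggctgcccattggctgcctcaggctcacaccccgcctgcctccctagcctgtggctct
Tef, second window (chr15:81811164-81811463, plus strand): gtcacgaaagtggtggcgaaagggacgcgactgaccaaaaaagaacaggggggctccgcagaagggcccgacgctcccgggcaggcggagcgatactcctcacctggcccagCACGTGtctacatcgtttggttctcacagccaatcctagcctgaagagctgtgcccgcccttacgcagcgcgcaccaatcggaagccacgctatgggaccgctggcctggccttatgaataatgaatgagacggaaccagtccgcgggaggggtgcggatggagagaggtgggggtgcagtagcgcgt
A match is a run of letters and not a shown binding site.

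The next 4 called genes belong to none of the 38 lists, were picked out after their values were seen, and stand for no group. The cold-inducible RNA-binding protein genes Cirbp and Rbm3 were higher in JNK1-/- by 1.42 and 1.01 (adjusted p = 0.0129 and 0.00244); Rbm3 read 11.68, 11.42 and 11.33 against 10.50, 10.70 and 10.21. Fkbp5, a chaperone partner that glucocorticoids induce, was higher by 1.35 (adjusted p = 0.031), and Nampt, the clock-driven enzyme of NAD salvage, read 10.47, 10.62 and 10.78 against 9.30, 9.44 and 9.52 (1.20, adjusted p = 0.00135). Of the 4, Rbm3 and Nampt were called in all 6 fits with 1 array left out, Cirbp in 4 and Fkbp5 in 3.

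Genes that drive mitosis were among those lower in JNK1-/-. Of 27 measured genes of the cell cycle and DNA replication, 3 were called, all lower (11.1%, against 2.44% of all genes). A negative difference was seen in 26, and the median was -0.54. The groups did not overlap for 19 of the 27 (70.4%, against 22.2% of all genes). The called members all act in mitosis. Plk1, a kinase that drives it, read 4.78, 5.47 and 5.81 in JNK1-/- and 6.67, 6.31 and 6.61 in JNK1Δhepa (-1.17, SE 0.29, adjusted p = 0.0344). Aurka, the spindle pole kinase, read 4.69, 5.07 and 5.15 against 6.00, 5.80 and 5.76 (-0.89, adjusted p = 0.0115), and Cdc20, which triggers chromosome separation, read 4.46, 4.66 and 5.19 against 5.95, 5.66 and 5.92 (-1.07, adjusted p = 0.0154). Bub1, of the spindle checkpoint, fell just short (-1.04, adjusted p = 0.0504), and Ccnd1, the cyclin that starts the cycle, had a difference of -1.55 (adjusted p = 0.229) with readings of 7.41, 9.73 and 9.14 against 10.31, 10.37 and 10.25. The mean log2 intensity of the list was 5.49, 6.11 and 6.11 in JNK1-/-, 6.60, 6.41 and 6.69 in JNK1Δhepa, 6.02 to 6.85 in ligated and 5.53 to 5.86 in sham controls. The JNK1-/- livers thus lay within or below the range of ligated controls. The list had 0 calls without JNK1-/- replicate 1 or without JNK1Δhepa replicate 1, and a median of -0.43 without the former.

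The 2 genotypes differ by design in the cells other than hepatocytes, where Mapk8 is meant to be deleted in JNK1-/- alone. They differ too in line and in when hepatocytes lost JNK1, which cannot be told apart from this. Among the marker lists of cells other than hepatocytes, that of neutrophils had the highest median. Of 16 measured neutrophil markers 1 was called (6.25%, against 2.44% of all genes), 15 had a positive difference, and the median was 0.69. The groups did not overlap for 9 members, all higher (56.2%, against 22.2%). Retnlg, a neutrophil-secreted resistin relative, read 7.95, 7.19 and 6.76 in JNK1-/- against 5.63, 5.76 and 4.67 in JNK1Δhepa (1.95, SE 0.42, adjusted p = 0.0169). Csf3r, the receptor for the growth factor of neutrophils, missed the threshold (1.05, adjusted p = 0.0543), as did S100a8, a subunit of calprotectin (1.36, adjusted p = 0.13). The list's mean log2 intensity was 6.37, 6.00 and 5.71 in JNK1-/- and 5.29, 5.35 and 5.21 in JNK1Δhepa, but it ran from 5.22 to 6.37 in ligated controls, a range that covers the JNK1-/- values, and from 4.81 to 5.11 in sham controls. Itgam, an integrin of neutrophils and monocytes, was called with readings of 9.34, 8.11 and 6.70 against 6.16, 6.57 and 5.91 (1.84, adjusted p = 0.019), and so was Mmp9, a gelatinase that neutrophils carry (1.18, adjusted p = 0.032). Retnlg, Itgam and Mmp9 were each highest in JNK1-/- replicate 1, and were called in 4, 2 and 1 of the 6 fits with 1 array left out; all 3 lost their calls without that array or without JNK1Δhepa replicate 3.

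Stellate cell and matrix genes gave no call in the fit of all arrays. Of 25 stellate cell and myofibroblast markers and 26 collagen and matrix genes, none passed in either direction, though 21 and 19 members had a negative difference and the medians were -0.40 and -0.27. A fit of the 48 h arrays alone called 3 stellate and 2 matrix genes, and a fit of the 6 arrays called 1 stellate gene. Pdgfrb, a growth factor receptor of stellate cells, read 7.63, 7.62 and 6.38 in JNK1-/- and 7.98, 7.74 and 7.96 in JNK1Δhepa (adjusted p = 0.447), and Lrat, which stores their retinoids, read 8.07, 8.08 and 6.78 against 8.45, 8.13 and 8.23 (adjusted p = 0.572). JNK1-/- replicate 3 was the low one for both, and for the mean of the stellate list, at 6.36 against 7.06 to 7.24 in the other 5 arrays; without it the list's median was -0.16. Acta2, the smooth muscle actin of activated stellate cells, read 6.54, 7.76 and 5.95 against 7.55, 7.64 and 7.73 (adjusted p = 0.615), and Col1a1, of type I collagen, 7.25, 7.82 and 6.64 against 7.27, 7.26 and 7.15 (adjusted p = 0.994), both with overlapping groups. Postn, a matrix protein gene, had the smallest p of the matrix list, with 5.68, 6.52 and 5.02 against 7.28, 7.34 and 7.36 (-1.59, adjusted p = 0.0764).

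The other cell types gave single calls. Among 22 macrophage and Kupffer cell markers Itgam alone passed; Clec4f, found in Kupffer cells only, read 6.89, 9.56 and 9.84 against 9.93, 9.91 and 9.99 (adjusted p = 0.223), with the low value in JNK1-/- replicate 1. Of 24 endothelial markers, Flt1, a receptor for VEGF, was lower with 6.74, 7.04 and 6.43 against 7.26, 7.62 and 7.85 (-0.84, adjusted p = 0.0132), while the list's mean was 8.20, 7.66 and 7.04 in JNK1-/- and 7.61 to 7.94 in JNK1Δhepa. Of 21 lymphocyte markers, Nkg7, of killer lymphocytes, was lower, with 4.07, 4.29 and 3.85 against 5.06, 4.97 and 5.17 (adjusted p = 0.0469) and lost its call in all 6 fits with 1 array left out. Of 18 bile duct cell markers only Prom1 passed. Pancreatic acinar genes read high in 1 liver, JNK1Δhepa replicate 3, where Ctrb1 and Cpa1, which encode digestive enzymes of the pancreas, stood at 8.03 and 7.45 against at most 4.90 and 4.93 in the other 5 arrays. JNK1Δhepa replicate 3 stood apart in other lists too, with a mean of 10.27 for male-biased liver genes against 9.30 and 9.31 in its group and of 11.60 for acute phase genes against 12.38 and 12.28. The mean of the acinar list was 5.59 there and 4.02 to 4.27 elsewhere, and none of its 14 members was called.

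Genes of the JNK pathway and its targets showed little. Of 20 measured genes of JNK kinases, upstream kinases, their scaffolds and phosphatases only Mapk8 passed. The gene of MKK7 was not among the 20. Of 24 AP-1 and immediate early genes none passed, with a median of -0.01. Jun read 9.00, 9.83 and 9.78 in JNK1-/- against 10.41, 10.16 and 10.15 in JNK1Δhepa (-0.70, adjusted p = 0.221), and Atf3 5.73, 8.70 and 7.86 against 8.05, 8.94 and 8.06 (adjusted p = 0.414). The AP-1 motif TGACTCA, on either strand, was in 4.44% of promoter windows of the called higher genes, 6.45% of those of the called lower genes and 5.28% of all. The CRE motif TGACGTCA was in 1.11%, 3.76% and 2.77%. Of 16 Hippo pathway and YAP target genes 1 passed, Ajuba, a scaffold protein, with 4.85, 6.85 and 6.61 against 7.58, 7.64 and 7.83 (-1.58, adjusted p = 0.0107).

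Of 25 interferon response genes 2 were called (8%, against 2.44% of all genes), both lower: Oasl1 (-1.56, adjusted p = 0.0451) and Rsad2, an antiviral enzyme (-1.04, adjusted p = 0.0375). The groups did not overlap for 11 members, all lower (44%, against 22.2%), and the median was -0.29. Lists with 0 calls had shares as high, 47.6% for endoplasmic reticulum stress genes and 46.7% for antigen presentation genes. The 2 calls fell to 0 in 5 of the 6 fits with 1 array left out and to 1 without JNK1-/- replicate 1. At 28 d the list leaned the other way, with 2 members called higher, 0 lower and a median of 0.69. A change from 48 h was called for 6 members, but for 0 without the 4 arrays whose Mapk8 goes against the label. Ifi44l, an interferon-induced gene outside the list, was called higher in JNK1-/- at both times, by 1.25 and 1.23. H2-Q1, a class I histocompatibility gene with near copies on the same chromosome, so that its reading is uncertain, was lower with 6.24, 6.85 and 7.03 against 8.40, 8.39 and 8.45 (-1.70, adjusted p = 0.000683). No member of the 30 cytokines and chemokines or the 27 acute phase genes passed. Cxcl9, which draws T cells, had the largest negative difference of its list, with 6.31, 7.98 and 7.77 against 9.88, 9.34 and 9.45 (-2.20, adjusted p = 0.113), and Cxcl13, which draws B cells, read 12.44, 7.59 and 7.02 against 6.11, 7.07 and 6.50, a single high reading in JNK1-/- replicate 1 (adjusted p = 0.259).

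Bile acid genes were mostly uncalled after the same operation in both genotypes. Of 16 genes of bile acid synthesis 1 was higher, Acox2, a peroxisomal oxidase of the side chain, with 11.70, 11.46 and 11.45 against 10.99, 11.04 and 10.94 (0.54, SE 0.09, adjusted p = 0.00385). Cyp7a1, the rate-limiting enzyme, read 10.68, 5.48 and 7.26 in JNK1-/- and 8.48, 7.37 and 10.85 in JNK1Δhepa, with overlapping groups and a wide spread in both (adjusted p = 0.731). Of 20 genes of bile and anion transport 1 was lower, Slc22a7, the organic anion transporter OAT2, with 4.83, 5.82 and 6.18 against 7.14, 7.25 and 7.79 (-1.78, adjusted p = 0.00726). Abcb11, the bile salt export pump, read 10.38, 11.84 and 11.71 against 12.00, 12.02 and 12.15, low in JNK1-/- replicate 1 alone by more than 1 log2 unit (adjusted p = 0.152). Of 15 bile acid receptor targets 1 was higher, Klb, the co-receptor for the gut hormone FGF15 (0.88, adjusted p = 0.0238), and of 22 cytochromes P450 of foreign compound metabolism 1 was higher, Cyp3a13 (0.68, adjusted p = 0.0388). Both lost their calls in 4 of the 6 fits with 1 array left out.

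Liver genes that differ between the sexes were looked at because all mice were male. None of 19 male-biased genes passed. Of 16 female-biased genes Fmo2 and Sult1e1 were higher in JNK1-/- and Prom1 lower, as given above (18.8% called, against 2.44% of all genes). The groups did not overlap for 9 (56.2%, against 22.2%), 5 higher and 4 lower, and the median was -0.12. Cyp17a1 fell just short (1.87, adjusted p = 0.0515). None of 14 genes of growth hormone and STAT5 signalling, which sets that pattern, passed. Cux2 (1.93, adjusted p = 0.0583) and Stat5a (-0.48, adjusted p = 0.0515) came closest, with no overlap between the groups.

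The same genotypes were compared on 6 other arrays, ligated for 28 d. There 181 genes were called (0.962%), 107 higher (0.569%) and 74 lower (0.393%) in JNK1-/-, and 32 were called in the same direction at both times, 19 higher and 13 lower in JNK1-/-. That is 6.96% of the 48 h calls and 17.7% of the 28 d calls. Without the 4 arrays whose Mapk8 reading goes against the label, 31 genes were called at 28 d (0.165%) and 20 at both times in the same direction, all 20 among the 32. Over the 460 genes called at 48 h, 47.8% had the same sign at 28 d, beside 42.5% of all genes.

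Slc6a16 at 28 d read 10.32, 10.93 and 10.66 in JNK1-/- and 3.89, 4.22 and 4.13 in JNK1Δhepa, a difference of 6.56 (adjusted p = 7.05e-15) beside 6.62 at 48 h. It lies on chromosome 7 among other genes that were higher in JNK1-/- at both times. Tead2, Cd37, Slc6a16 and Slc6a21 are the 4 tested genes from 45215792 to 45288996 (73.2 kb, RefSeq GRCm38.p6), a stretch whose bounds were set by these called genes. Tead2 differed by 2.27 at 48 h and 2.48 at 28 d, Cd37, a tetraspanin of B cells, by 1.18 and 1.15, and Slc6a21, a transporter gene, by 1.11 and 0.71. None of the 3 nearest tested genes on either side was called at either time, the closest being Dkkl1 at 0.33 (adjusted p = 0.123 at 48 h) and Trpm4 at 0.42 (adjusted p = 0.183). Whether these probes read 1 shared transcript or separate ones was not tested. A difference between the lines cannot be told apart from an effect of JNK1 here.

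Genes near Mapk8 on chromosome 14 were also among those called at both times. Within 20 Mb of Mapk8, 15 of 285 genes were called at 48 h (5.26%, against 2.44% of all genes with a position), and 7 were called in the same direction at both times (2.46%, against 0.165%), shares that are a description with no test. Beside Mapk8 these include Slc39a2, a zinc transporter 18.5 Mb away, which read 7.53, 7.39 and 7.26 against 5.62, 5.88 and 5.83 at 48 h (1.62, adjusted p = 8.26e-07) and differed by 0.89 at 28 d. Lrit1, a retinal membrane protein gene 3.7 Mb away, was lower, with differences of -1.28 at 48 h and -1.07 at 28 d. Linked sequence that came with the knockout allele cannot be told apart from an effect of JNK1 with these arrays.

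Elsewhere, Akr1c18, which encodes the progesterone-inactivating hydroxysteroid dehydrogenase, read 3.66, 4.60 and 4.16 in JNK1-/- and 5.56, 6.14 and 6.09 in JNK1Δhepa at 48 h (-1.79, adjusted p = 0.0052) and 4.95, 4.36 and 3.71 against 7.06, 6.77 and 6.92 at 28 d (-2.57, adjusted p = 0.000442). Gas2, a cytoskeletal protein gene, differed by -1.76 and -1.68 (adjusted p = 0.00155 and 0.0034). It also lies on chromosome 7, from 51861791 to 51995005, outside the 73.2 kb stretch. Chromosome 7 held 7 genes called in the same direction at both times (0.425%, against 0.165% of all genes with a position). Igf2bp3, a fetal RNA-binding protein gene, differed by -1.74 and -1.23 (adjusted p = 0.00113 and 0.026). Prelid2 was higher at both times, by 2.63 and 1.79 (adjusted p = 0.000374 at 28 d and 0.00876 there without the 4 arrays that go against their label). Lnx1 was higher at both times, by 2.10 and 1.69, and so was Phyhip, by 1.04 and 0.90. At 28 d Igf2bp3 lost its call without the 4 arrays that go against their label (adjusted p = 0.269), while Akr1c18, Gas2, Lnx1 and Phyhip kept theirs.

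**Figure D5:**
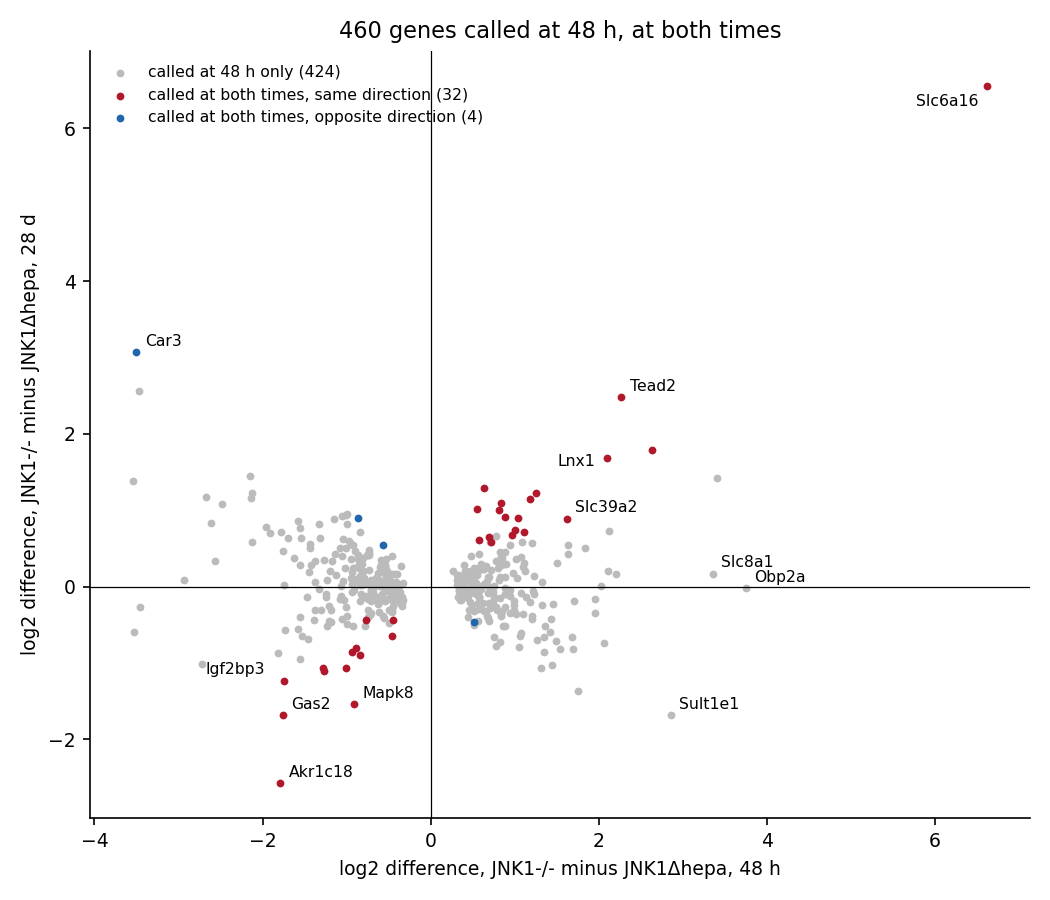
The 460 genes called at 48 h, by their log2 difference, JNK1-/- minus JNK1Δhepa, at 48 h (x axis) and at 28 d (y axis); red points are the 32 genes called in the same direction at both times, blue points the 4 called in opposite directions, grey points those called at 48 h only. Slc6a16 is at the far upper right, Akr1c18 at the bottom left, and Car3 at the upper left; Obp2a and Slc8a1 lie near 0 at 28 d.

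Over all genes, a change of the difference from 48 h to 28 d, tested as an interaction, was called for 457 (2.43%). It was called for 12 (0.0638%) without the 4 arrays that go against their label and for 70 without JNK1Δhepa 28 d replicate 1 alone. Of the 15 genes with the largest differences in each direction at 48 h, 7 of those higher and 14 of those lower had a called change. Without the 4 arrays that go against their label, 2 in each direction did. These genes were picked by the same 48 h differences that the change is measured from. A shrinking difference is thus favoured by the choice, and the counts are no result about these genes. Slc8a1 was among the 12. It read 4.43, 5.73 and 5.03 in JNK1-/- and 4.88, 4.80 and 4.99 in JNK1Δhepa at 28 d, so its difference of 3.36 at 48 h was 0.17 at 28 d, a change of -3.18 (adjusted p = 0.00505, or 0.00713 without those arrays). Obp2a changed by -3.78 and Acacb by 3.34 (adjusted p = 0.00773 and 0.00505), and both were also among the 12, at adjusted p = 0.044 and 0.0496. The 4 genes called in opposite directions at the 2 times were Car3, Mlxipl, the amino acid transporter gene Slc1a4 and Slc25a20. Car3 went from -3.50 at 48 h to 3.07 at 28 d and Mlxipl from -0.57 to 0.55. Their 28 d calls were lost without the arrays that go against their label (adjusted p = 0.359 and 0.213), where their interactions were still called (adjusted p = 0.0496 and 0.044).

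Ligated controls place the 2 genotypes. Against the 3 JNK1f/f livers ligated for 48 h, 433 genes were called in JNK1-/- (2.3%) and 0 in JNK1Δhepa, where 607 genes (3.23%) had an unadjusted p under 0.05 in limma. These comparisons share their control arrays, so only levels are set side by side. Mapk8 itself was not called in JNK1Δhepa against controls, though it read 6.77, 6.81 and 6.76 against 7.47, 7.49 and 7.37. Nor was Nnt, with means of 8.95 and 9.94. The 0 calls therefore do not show that JNK1Δhepa and control livers were alike. For Ces1g the group means were 7.92 in JNK1-/-, 11.45 in JNK1Δhepa and 11.46 in controls. Acacb had 7.18, 9.31 and 8.63, Slc8a1 7.31, 3.96 and 4.02, and Fmo2 9.39, 7.19 and 7.04. For Ces1g, Slc8a1 and Fmo2 the JNK1Δhepa mean lay near the control and the JNK1-/- mean apart, while for Acacb the 3 JNK1Δhepa arrays were all above the controls. Nr1d2 was placed otherwise, with 9.12 in JNK1-/-, 7.79 in JNK1Δhepa and 8.85 in controls, and so was Nnt, where JNK1-/- lay near the control.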

How the data were processed

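Whole-liver RNA was hybridised to 1-colour arrays, and the authors deposited RMA log2 intensities, per the submitters' processing notes, with no scanner files and no detection calls used here. Of 35556 probe sets, 21218 have 1 gene symbol, 1881 several and 12457 none here. Those with 1 symbol, 21182 of them matched to RefSeq (GRCm38.p6), gave 18820 genes, each read at its brightest probe set. Limma 3.58.1 in R 4.3.3 fitted a group-means model to all 24 arrays (8 groups of 3, 16 residual degrees of freedom) with 5 contrasts, with moderated variances and Benjamini-Hochberg adjustment over all genes, called at 0.05. Array medians were 5.184 to 5.324, the number of arrays limits precision, and no 2 arrays held identical values. On simulated data for the 48 h comparison, 44.8% of genes changed by 0.5 on the log2 scale, 92.5% by 1 and 97% by 2 were called, with 5.45% false calls. The simulation drew independent normal noise with a single spread per gene for all groups. It held no arrays that stand apart, as JNK1-/- replicate 1 does, so these shares need not hold for the real arrays.

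The members and lists were chosen with earlier results of these data known. Named were the 15 largest called genes per direction with non-overlapping groups, leaving out predicted genes, those called at both times (10 per direction), 6 by interaction, and called members and the 4 smallest p of each of 38 lists. Chosen after their values were seen were Acaa1b, Acly, Acta2, Alb, Arntl, Bhlhe40, Ccnd1, Ciart, Cirbp, Col1a1, Cpa1, Cry1, Cry2, Ctrb1, Cxcl13, Cyp7a1, Eci2, Ehhadh, Fasn, Fkbp5, H2-Q1, Lpl, Lrat, Nampt, Pdgfrb, Pdk4, Per1, Per3, Rbm3, S100a8, Slc1a4, Slc25a20 and Slc6a21. Same-numbered arrays of the genotypes at 48 h deviated from their group means with correlations of -0.09, 0.12 and -0.07, so numbers were not used as pairs in the reported values. Alternatives were quantile normalization, centring, leaving out dim genes, averaging probe sets, fewer arrays in the fit, a variance trend, the replicate block and leaving out single arrays.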

Additional observations from a re-analysis of the deposited data

Results flagged for a closer look

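The difference between JNK1-/- and JNK1Δhepa livers changed from 48 h to 28 d for 45 of the genes described, by limma's interaction test over all genes. Many of them were named for their 48 h differences, which enter this test, so a shrinking difference is favoured by that choice. Values are the 28 d difference minus the 48 h difference on the log2 scale, so a negative value means that JNK1-/- stood relatively higher at 48 h. Only 6 of the 45 kept an adjusted p under 0.05 without the 4 arrays whose Mapk8 goes against the label, although none of the 45 values moved by more than 0.61. These were Obp2a by -3.78, Slc8a1 by -3.18, Car3 by 6.57, Acacb by 3.34, Mlxipl by 1.12 and H2-Q1 by 2.35; without those arrays they changed by -3.97, -3.18, 5.96, 3.15, 1.08 and 2.15, in that order. Slc8a1 had the smallest adjusted p without those arrays, at 0.00713.

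The other 39 missed the threshold without those arrays, with adjusted p between 0.0534 and 0.197 there. Among genes that stood higher in JNK1-/- at 48 h, the difference of the ion channel, enzyme and myeloid genes changed, Asic5 by -2.00, Sult1e1 by -4.55, Fmo2 by -2.04, Chil3 by -2.80 and Nox4 by -2.28. The clock genes Nr1d2 and Tef and 4 genes picked after their values were seen changed too, Nr1d2 by -1.58, Tef by -1.85, Rbm3 by -1.37, Cirbp by -2.02, Fkbp5 by -2.21 and Nampt by -1.62. Lpin2, of the lipid synthesis list, changed by -1.30, and called genes of the fatty acid oxidation list changed, Cpt1a by -1.0, Hadhb by -0.47, Angptl4 by -2.36 and Creb3l3 by -0.67, and Slc39a2, near Mapk8, changed by -0.73.

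Among genes that stood lower in JNK1-/- at 48 h, liver transporters, channels and enzymes changed, Slc22a26 by 4.92, Ces1g by 2.94, Chrna4 by 6.03, Inmt by 3.02, Aqp8 by 3.85, Aldh3b2 by 3.60 and Slc22a7 by 2.49. Lipid genes changed as well, Fabp5 by 3.45, Thrsp by 3.57, Angptl8 by 2.70, Srebf1 by 1.59, Elovl5 by 1.45, Gpam by 1.81, Lpl by 1.85 and Ebp by 0.80. The rest were Npas2 by 2.91, Sytl5 by 3.30, Prom1 by 2.74, Pygl by 1.13, Aurka by 0.99, Oasl1 by 2.33 and Rsad2 by 1.68.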

How the results depend on the processing

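Of 78 named genes called at 48 h, none reversed under the 15 alternatives. Their groups did not overlap, so leaving out arrays, fitting fewer groups or the replicate block could not have reversed a sign. Of 1167 gene values 256 lost their call, and 19 of the 78 genes kept it throughout. With single arrays left out, calls at 48 h ran from 145 to 382 (89 to 176 higher, 56 to 206 lower), at 28 d from 42 to 169, for the change between the times from 70 to 458, for JNK1-/- minus ligated control from 161 to 413 and for JNK1Δhepa minus control from 0 to 3. Fitting only the groups compared gave 153 calls at 48 h (83 higher, 70 lower), 84 at 28 d, 815 for the change and 121 against control; only arrays of the same time gave 663 at 48 h (329 higher, 334 lower), 37 at 28 d and 679 against control; without the 4 arrays against their label, 31 and 12 were called at 28 d and for the change. With the replicate number as a block, a pairing the data do not bear out, 66 genes were called at 48 h (30 higher, 36 lower), 34 at 28 d, 950 for the change and 17 against control. Quantile normalization, centring, leaving out dim genes, averaging probe sets and the variance trend kept the 48 h count between 435 and 551. The causes were not tested. With 3 arrays a group and a median SE of 0.1294, small differences and dim genes are beyond these data, and how far each probe lies above background was not analysed here.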
